A study of Mus musculus with 6 samples.

Results

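Thymosins and the calponin family are small proteins that bind actin, and 5 of the 10 genes looked for were measured: TMSB10, TAGLN, CNN1, CFL2 and PFN1. They were chosen by gene symbol from the 1521 genes named on the array, and each had 1 probe printed in 2 spots, 10 spots of 5376 in all. No spot carried the symbol TMSB4X, TAGLN2, CNN2, CNN3 or CFL1, so those genes are not analysed here. TMSB10 was the only one of the 5 that passed the test over the days. Its scores were below 0, lowest on day 1, which reads as a fall in the clone made to silence MyoD if positive scores mean higher in the clone. The files do not state that direction, and with the opposite one TMSB10 would be higher in the clone.

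The cells were C2C12, a line of mouse myoblasts that fuse into myotubes once serum is lowered. The test cells, MyoD(-)cl.A8, were a single G-418 resistant clone of C2C12 carrying the mouse MyoD transcript in antisense orientation in pcDNA 3.0, and the reference was C2C12 control cells. MyoD is the transcription factor that commits cells to skeletal muscle. Clone and control were compared after 1, 3 and 6 days in differentiating medium (DMEM with horse serum in place of fetal bovine serum), on 2 arrays a day. On replicate A the clone carried Cy5 and the control Cy3, and on replicate B the dyes were exchanged. The labels do not say whether the control cells had received an empty vector.

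Cells keep a pool of single actin molecules and build filaments from it. Beta-thymosins such as TMSB10 hold actin monomers back from filaments, profilins such as PFN1 feed monomers to growing ends, and cofilins such as CFL2, the form typical of muscle, cut and take apart old filaments. TAGLN (transgelin, also called SM22) and CNN1 (calponin) share the calponin-homology fold, bind filaments and are abundant in smooth muscle. In skeletal myoblasts this machinery is remodelled as cells align, fuse and assemble sarcomeres.

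Each value is a deposited score for clone against control, of unstated scale, and no fold change can be given. A positive score is taken as higher in the clone. That direction is an assumption: the labels name the clone as test and the control as reference but do not give the sign. Whether the scores bear it out was not tested. Scores were averaged over the spots of a gene and centred on each array's median, which gave 2466 features. The probes were made for human genes and met mouse RNA, and what they bound was not tested. Signal over background is unknown. Both arrays of a day compared the same cell types and count as 1 replicate, so n = 3 days. Nothing in the labels says that the days were separate cultures, so p-values measure only the spread between these samples. In limma the error of each feature is drawn toward that typical of all features.

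MyoD binds E-boxes, DNA elements with the letters CANNTG, and the serum response factor, a classic regulator of TAGLN and CNN1, binds CArG boxes. The 250 bases before the mouse start sites are therefore shown for the gene that passed, TMSB10, and for CNN1, a gene that did not. The sequences are RefSeq's for GRCm38.p6, written 5′ to 3′ with E-boxes in capitals, at chr6:72958749-72958998 on the minus strand (Tmsb10, the outermost of 3 start sites) and chr9:22099003-22099252 on the plus strand (Cnn1).
Tmsb10: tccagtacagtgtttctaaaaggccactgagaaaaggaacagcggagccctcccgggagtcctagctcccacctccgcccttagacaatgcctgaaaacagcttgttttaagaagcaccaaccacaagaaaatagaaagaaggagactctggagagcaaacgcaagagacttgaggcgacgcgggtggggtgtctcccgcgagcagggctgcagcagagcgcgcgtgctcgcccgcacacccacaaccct
Cnn1: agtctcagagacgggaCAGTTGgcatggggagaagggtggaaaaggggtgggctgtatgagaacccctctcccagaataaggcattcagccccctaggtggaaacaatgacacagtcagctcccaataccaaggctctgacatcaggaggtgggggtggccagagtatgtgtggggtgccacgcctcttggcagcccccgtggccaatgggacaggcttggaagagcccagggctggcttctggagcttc

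The Cnn1 window held 1 E-box, starting 234 bases before the start site, and the printed Tmsb10 window held none. Of 4 genes with an entry (Tmsb10, Cnn1, Cfl2 and Pfn1) there were 6 such windows, and 4 of them held an E-box, among them the innermost start site of Tmsb10. Of all 32851 windows of the same length, 66.2% held one, so its presence is common. The E-box CAGCTG was in 0 of the 6 windows and 13.0% of all, and a CArG box in 0 of the 6 and 1.47% of all. Both E-box forms were searched on both strands, CAGCTG being a subset of CANNTG. The search covers only these letters in these windows.

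TMSB10 (Entrez Gene 9168), the actin-sequestering thymosin beta-10, had scores of -3.90 and -4.53 on the day 1 arrays (replicates A and B), -1.59 and -0.55 on day 3, and -1.93 and -2.64 on day 6. All 6 scores lay below 0, as they did for 2.88% of features, and both day 1 arrays lay below every array of the later days. Its mean over the days was -2.52 ± 1.58 (SD, n = 3 days), with a 95% interval of -3.64 to -1.41 from limma and an adjusted p = 0.0458 over all features. Both rest on a standard error of 0.53 that limma drew toward the spread of other features. The 3 day means of TMSB10 alone would give a larger error and a wider interval. TMSB10 was 1 of 4 features called lower, which is 0.162% of those tested. By mean over the days it ranked 3 from the bottom of 2466 features.

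**Figure D1:**
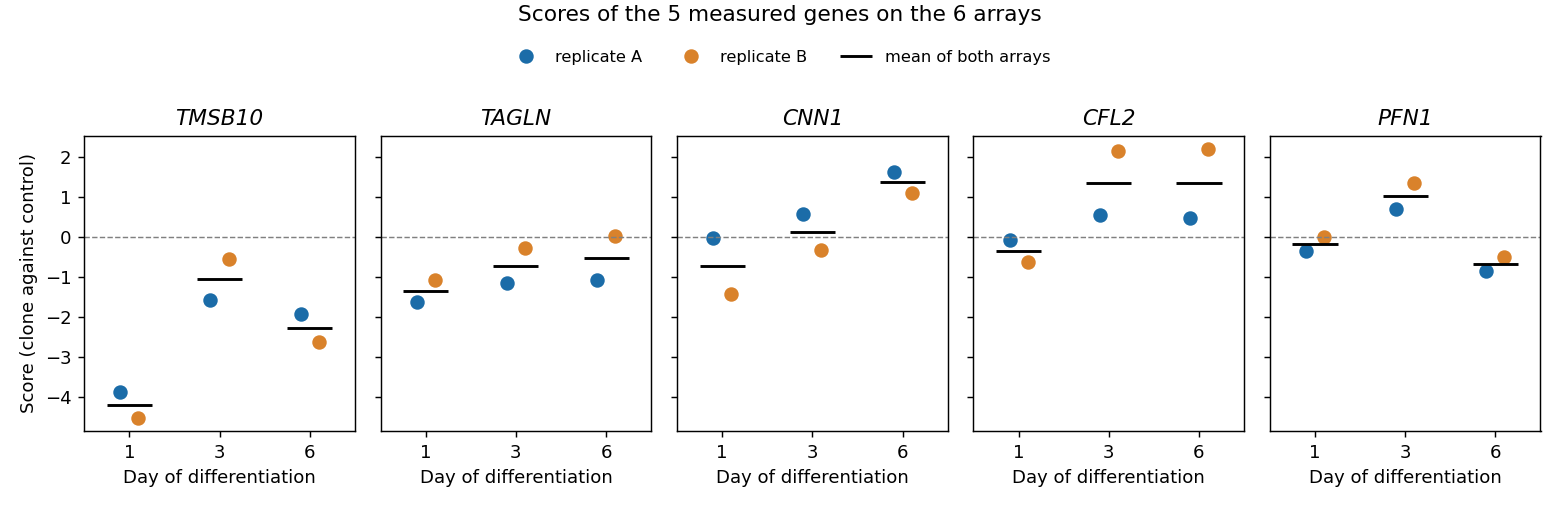
Scores (clone against control) of TMSB10, TAGLN, CNN1, CFL2 and PFN1 by day of differentiation; points are single arrays, coloured by replicate, and black lines are the mean of both arrays of a day. All 6 points of TMSB10 lie below 0, lowest on day 1 at -3.90 and -4.53, 5 of 6 points of TAGLN lie below 0, and CNN1, CFL2 and PFN1 have points on both sides.

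The call over the days was narrow. It held with the 6 arrays taken as separate samples (adjusted p = 0.0423), with values as deposited (0.0299) and with the first spot alone (0.00340), and ended under the other 17 of 20 alternatives, including each array or day left out. The mean stayed below 0 under all 20, between -3.25 without day 3 and -1.68 without day 1, and moved by more than 1.5 times only without day 1. By dye orientation the mean was -2.47 ± 1.25 (SD, n = 3 days) on the arrays with the clone in Cy5 and -2.57 ± 1.99 on those with the clone in Cy3. With the 6 arrays taken as separate samples, a term for dye orientation raised the adjusted p in limma from 0.0423 to 0.0712.

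**Figure D2:**
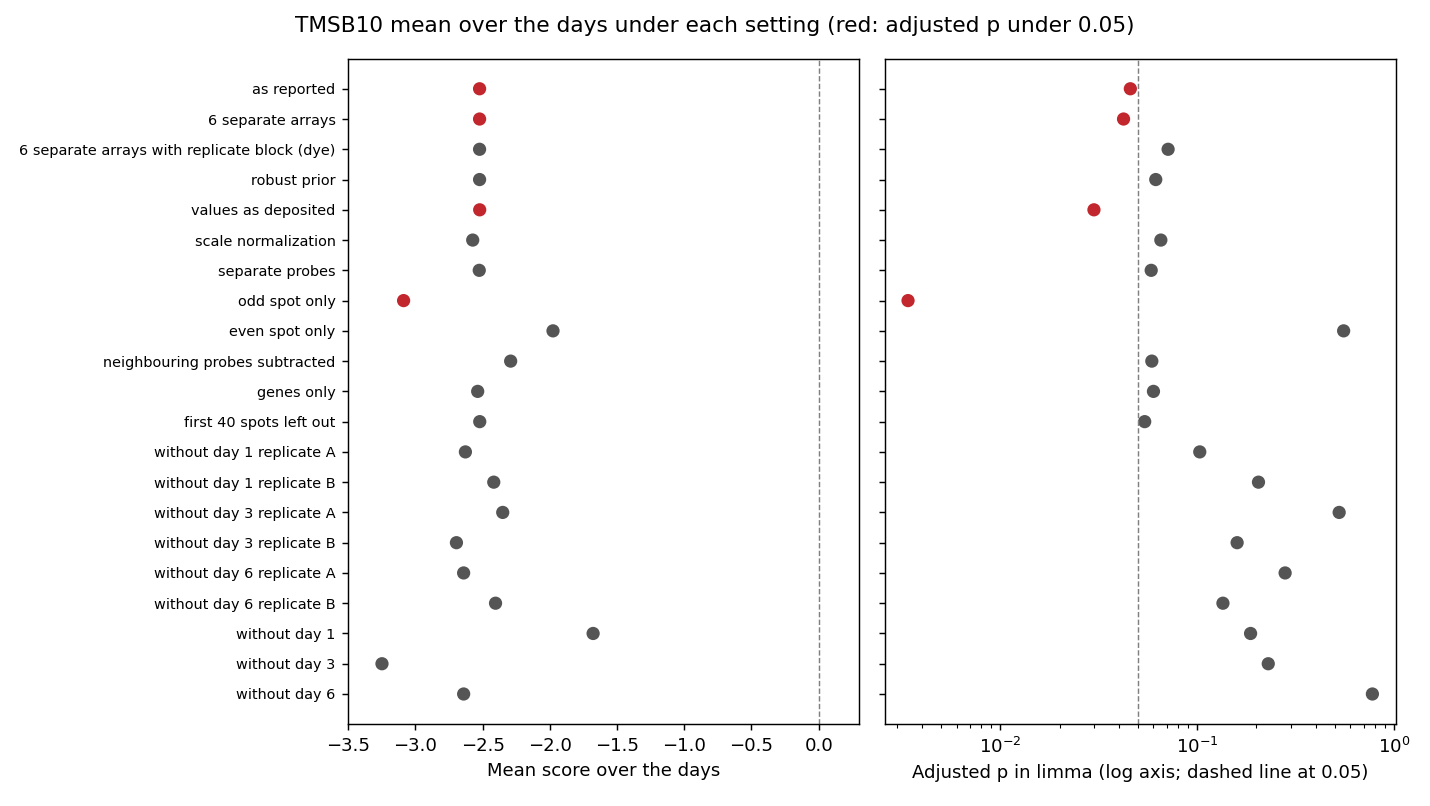
Mean score of TMSB10 over the days (left) and its adjusted p in limma (right, log axis, dashed line at 0.05) as reported and under each alternative; red points have an adjusted p under 0.05. The mean lies between -3.25 and -1.68 in all 20 alternatives, while the adjusted p passes in 3 of them.

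Day 1 was where TMSB10 stood furthest from control. Its mean of -4.21 ranked 2 from the bottom of 2466 features, and limma, fitted to all 6 arrays with an error taken from the disagreement of the dye-swapped pairs alone, gave a 95% interval of -5.57 to -2.85 and an adjusted p = 0.00703. That error is technical, and day 1 has no replicate of its own. The p-values and intervals of single days and of differences between days therefore say nothing about the spread between cultures. In that fit 2 features were called lower on day 1, or 0.0811% of those tested. TMSB10 also lay among the 7 features (0.284%) at least 2 units lower on both arrays, and among the 3 (0.122%) at least 3 units lower. The day 1 call ended with a term for dye orientation (adjusted p = 0.0527), with the second spot alone (0.297) and without either day 1 array (0.364 and 0.367). The 10 probes around TMSB10 on the array had medians of -0.74 and -0.51 on the day 1 arrays; with these subtracted TMSB10 stood at -3.58 (adjusted p = 0.00852).

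On day 3 its mean of -1.07 had rank 259 of 2466 and did not pass (adjusted p = 0.652, interval -2.43 to 0.29). On day 6 its mean of -2.29 had rank 33 and did not pass over all features (adjusted p = 0.179, interval -3.65 to -0.93). Of the day 6 arrays, replicate B reached 2 units and replicate A, at -1.93, fell just short, so TMSB10 was not among the 28 features (1.14%) lower by 2 units on both. With the limit at 1.5 units it was among 61 features (2.47%). No difference between days passed for TMSB10. Day 3 stood 3.14 above day 1 (adjusted p = 0.448, interval 1.22 to 5.07, before adjustment), day 6 stood 1.93 above day 1 (0.599), and day 6 stood 1.22 below day 3 (contrast -1.22, 0.771). The fit called 0.162% of features from day 1 to day 3, 0.365% from day 1 to day 6 and 0.0406% from day 3 to day 6.

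**Figure D3:**
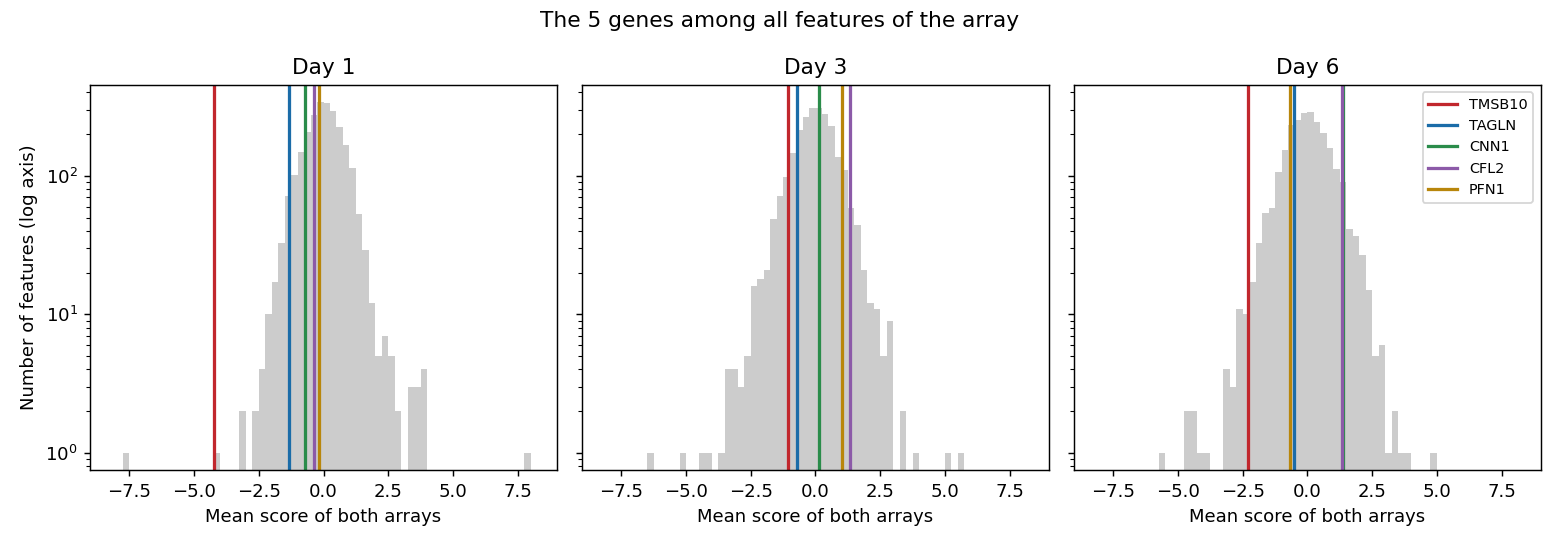
Histograms of the mean score of all 2466 features on days 1, 3 and 6 (grey, log axis for the number of features), with coloured lines at the 5 actin-binding genes. TMSB10 stands in the low tail on day 1 at -4.21, moves into the body of the distribution on day 3 at -1.07 and lies at -2.29 on day 6.

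The spots of TMSB10 had the same sign on 5 of the 6 arrays, against a median of 4 over all probes. Before centring, its first and second spots read -4.11 and -3.67 on the day 1 replicate A and -4.92 and -4.11 on the day 1 replicate B. They differed in sign only on the day 3 replicate B, at -1.44 and 0.40. The median gap between its spots over the 6 arrays was 0.89, against 1.01 for the median probe of the array. Over the days the first spot alone gave -3.09 (adjusted p = 0.00340 in limma). The second alone gave -1.98 and did not pass (0.555). A single probe therefore carries the TMSB10 result, and no second probe of the gene was on the array to set beside it.

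TAGLN (Entrez Gene 6876), the calponin-family filament binder transgelin, had scores of -1.62 and -1.08 on day 1, -1.17 and -0.29 on day 3, and -1.08 and 0.013 on day 6. Of its 6 scores 5 lay below 0, and the day 3 arrays overlapped those of both other days. The mean over the days was -0.87 ± 0.43 (SD, n = 3 days), which did not pass (adjusted p = 0.741, interval -1.79 to 0.05). Its rank was 118 from the bottom of 2466 features over the days and 109 on day 1. By dye orientation the mean was -1.29 ± 0.29 (SD, n = 3 days) with the clone in Cy5 and -0.45 ± 0.57 with the clone in Cy3. Its spots had the same sign on 3 of 6 arrays and lay furthest apart on the day 6 replicate A, at 0.65 and -2.95.

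CNN1 (Entrez Gene 1264), calponin 1, which binds filaments and is a marker of contractile smooth muscle, had scores of -0.03 and -1.42 on day 1, 0.56 and -0.33 on day 3, and 1.62 and 1.09 on day 6. Both day 1 arrays lay below 0 and both day 6 arrays above it, with day 3 in between on 1 array of each sign. Signs opposed in this way between days 1 and 6 occurred for 15.6% of features. The mean over the days was 0.25 ± 1.05 (SD, n = 3 days) and did not pass (adjusted p = 0.983, interval -0.75 to 1.25). Day 6 stood 2.09 above day 1, with an unadjusted p = 0.0389 but an adjusted p = 0.569 in limma. Unadjusted values that low occurred for 8.27% of features in this contrast.

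The spots of CNN1 had the same sign on 3 of the 6 arrays, among them both day 6 arrays, and opposite signs on the others. The first spot read higher than the second on all 6 arrays, for example 2.01 and -0.88 on the day 3 replicate A and 2.84 and 0.26 on the day 6 replicate A. The median gap of 1.54 was exceeded by 16.7% of probes. With the first spot alone the mean over the days was 0.79, and with the second spot alone -0.31. The order of the days was the same in both: the gap from day 1 to day 6 stayed between 1.39 and 2.78 under all 16 alternatives, none of which passed.

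**Figure D4:**
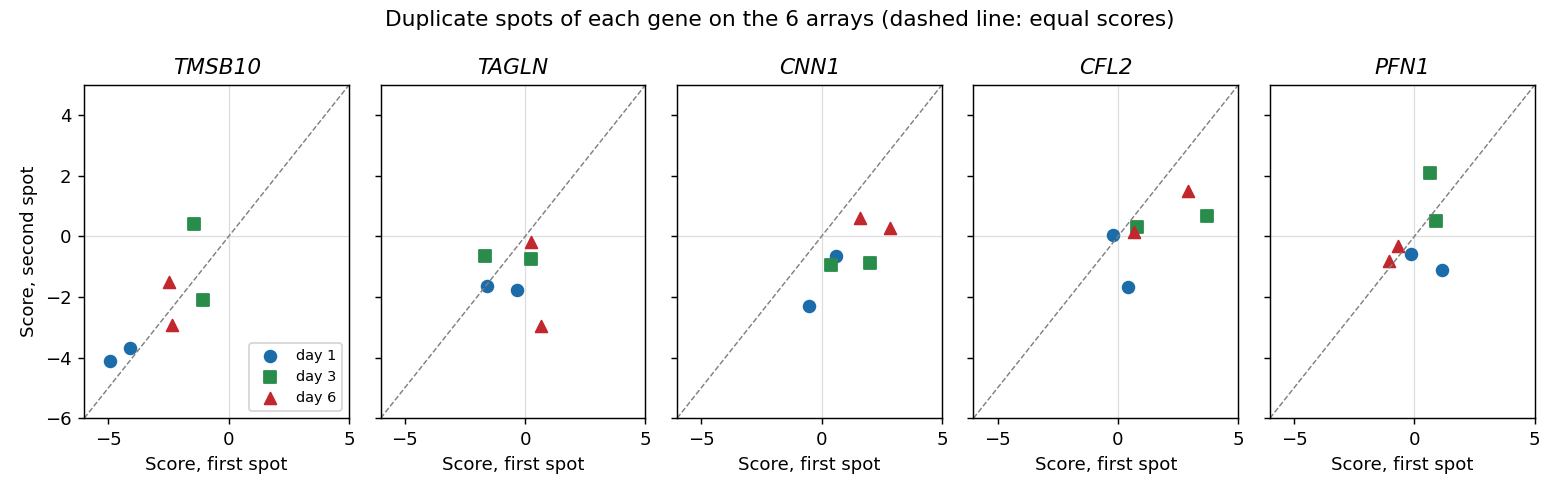
Score of the second spot against that of the first for each gene, 1 point per array, with days marked by colour and shape and a dashed line of equal scores; values are as deposited. TMSB10 lies low in both spots on day 1, and all 6 points of CNN1 lie below the line because its first spot read higher on every array.

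CFL2 (Entrez Gene 1073), the muscle cofilin, had scores of -0.08 and -0.64 on day 1, 0.55 and 2.14 on day 3, and 0.48 and 2.19 on day 6. Both day 1 arrays lay below 0 and all 4 later arrays above it, but replicate B alone reached 2 units on days 3 and 6. Opposed signs between days 1 and 3 occurred for 14.2% of features. The mean over the days was 0.77 ± 0.98 (SD, n = 3 days, adjusted p = 0.819 in limma, interval -0.22 to 1.77). By dye orientation it was 0.32 ± 0.34 with the clone in Cy5 and 1.23 ± 1.62 with the clone in Cy3. The high day 3 replicate B rested on its first spot, at 3.70 against 0.66 for the second. Before centring, the day 1 spots of CFL2 differed in sign on both arrays. They read -0.20 and 0.06 on replicate A and 0.42 and -1.68 on replicate B.

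PFN1 (Entrez Gene 5216), profilin, which delivers actin monomers to growing filaments, had scores of -0.35 and 0.0009 on day 1, 0.70 and 1.35 on day 3, and -0.86 and -0.52 on day 6. Day 3 was the highest on both arrays and day 6 the lowest, above and below 0, a pattern shared by sign alone with 13.5% of features in either direction. The mean over the days was 0.05 ± 0.88 (SD, n = 3 days, adjusted p = 0.993 in limma, interval -0.92 to 1.03). Day 6 stood 1.71 below day 3 (contrast -1.71), with an adjusted p = 0.621. Its spots lay closest together of the 5 genes by median gap, at 0.42, which 94.2% of probes exceeded. On the day 1 replicate B, however, they differed in sign, at 1.13 and -1.10 before centring.

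The order of the means over the days was TMSB10 (-2.52), TAGLN (-0.87), PFN1 (0.05), CNN1 (0.25) and CFL2 (0.77). The interval of TMSB10 overlapped that of TAGLN and lay wholly below those of PFN1, CNN1 and CFL2, while the intervals of the other 4 genes overlapped each other. Of the 5 genes, 1 was called over the days. Against technical error alone, 1 was called on day 1 and 0 on day 3, on day 6 or between days. At an unadjusted p under 0.05, limma also had TMSB10 on day 6, where 11.1% of features did, between days 1 and 3 (7.62%) and between days 1 and 6 (8.27%), and CNN1 between days 1 and 6. The share of all features called was 0.365% over the days, 0.243% on day 1, 0.324% on day 3 and 0.284% on day 6.

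Genes whose scores followed those of the family over the 6 arrays were found by Pearson's correlation among 1520 other genes. The arrays of a day count as 1 replicate, so these values describe 3 days and carry no test. For TMSB10 the highest were SPON2 (0.95), PPP1R1A (0.92), UQCC2 (0.92), MXD4 (0.92) and SET (0.92), 5 of 7 genes above 0.9. All 5 shared the order of its days, with day 1 lowest and day 3 highest, which choosing them by correlation favours. They did not share its level, since their means over the days lay between -0.10 and 0.35. How many genes would exceed 0.9 by chance on 6 arrays was not tested. For TAGLN the highest were POLR2L (0.96), MAP7D1 (0.95) and SSU72 (0.94). For CNN1 they were TBKBP1 (0.94), SELENBP1 (0.94) and CRELD1 (0.92), and TBKBP1, with day means of -0.50, 0.31 and 1.08, was also the gene nearest to CNN1 in score.

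A wider list of 109 genes, called the actin cytoskeleton list, placed the family among its partners, and 33 of the 109 were measured. It included the 10 above and also the intermediate filament genes VIM and DES. TMSB10 was the only one of the 33 called over the days or on day 1; 0 were called on day 3, on day 6 or between days. At an unadjusted p under 0.05 the limma test over the days had 3 of them, all lower, or 9.09% of the 33 against 6.65% of all features. Besides TMSB10 these were ZYX, the focal adhesion protein zyxin, at -1.57 ± 0.69 (SD, n = 3 days, adjusted p = 0.181) and GSN, the filament-severing gelsolin, at -1.09 ± 0.39 (0.620). They were also the 3 lowest means of the list. ZYX had day means of -0.93, -1.48 and -2.30 and 6 scores below 0. The 3 highest means were DES (0.90), which encodes the intermediate filament protein desmin, CFL2 (0.77) and ACTC1 (0.68), cardiac actin, none of which passed.

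Without the 5 genes described, 20 of 28 measured genes of the list had a mean below 0 and 8 above it, with a median of -0.17, against 47.7% of all genes below 0 and a median of 0.02. Their median was -0.23 on day 1, -0.71 on day 3 and 0.28 on day 6, with medians of all genes between 0.01 and 0.04. By array, replicate A first, the medians were -0.34 and -0.09 on day 1, -0.84 and -0.74 on day 3, and -0.02 and 0.14 on day 6. The median over the days moved when 1 array was dropped: to -0.09 for replicate A and -0.27 for replicate B of day 1, to -0.07 and -0.37 for those of day 3, and to -0.29 for replicate B of day 6. It was -0.35 without day 1 and -0.38 without day 6. The count below 0 was 15 of 28 without the day 3 replicate A and 17 to 20 without any other array. Without day 3 the count was 13 below 0 and 15 above, with a median of 0.04, and with the first spot alone it was 15 and 13, with a median of -0.08. TMSB10, lowest on day 1 and nearest to 0 on day 3, thus did not share the order of the list's daily medians.

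**Figure D5:**
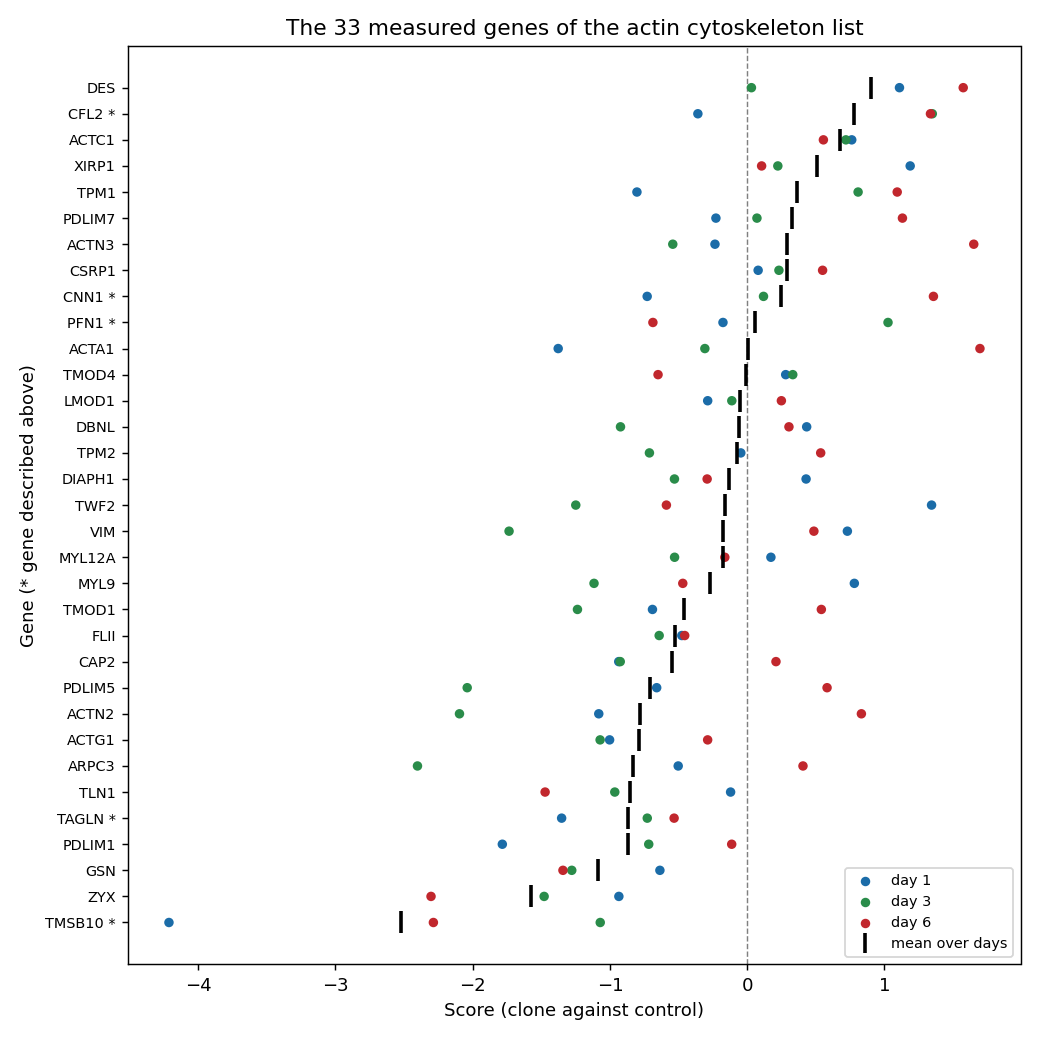
Scores of the 33 measured genes of the actin cytoskeleton list, sorted by mean over the days (black ticks), with coloured points for the mean of both arrays on days 1, 3 and 6; stars mark the 5 genes described. TMSB10 is lowest at -2.52, followed by ZYX at -1.57, and DES is highest at 0.90.

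By role, the genes of capping, severing and nucleation had 8 of 8 means below 0 (median -0.30). That count was 7 of 8 with scale normalization and 4 of 8 with the first spot alone. It was 5 of 8 without the day 1 replicate A (median -0.10) or the day 6 replicate B (-0.33), and 6 of 8 without the day 3 replicate A (-0.43). The median was -0.62 without the day 1 replicate B. Among cross-linkers and membrane links 5 of 8 lay below 0 (median -0.74), and among actins and tropomyosins 2 of 5 (median 0.00). The group named smooth muscle contractile, which also held the intermediate filament genes VIM and DES, had 3 of 5 below 0 (median -0.17). None of these groups held a called gene, and none was tested as a group.

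Scores set the clone against the control and cannot show whether a cell type marker was present. In such bulk RNA, fewer cells of a type and less RNA per cell cannot be told apart. Of 12 skeletal muscle markers 8 were measured, 5 above 0 and 3 below, with a median of 0.07. Their median by day was -0.39, -0.06 and 0.78, an order of days like that of CNN1. Under the assumed direction the median marker would thus be higher in the clone on day 6, and under the opposite one lower. MYF6 lay on the other side of 0 on day 6, at -0.16. The high day 6 means of ACTA1 (-0.58 and 3.97 on replicates A and B) and DES (0.14 and 3.01) rested on replicate B. Of 7 smooth muscle markers 3 were measured, TAGLN, CNN1 and the myosin light chain MYL9 at -0.27, and MYL9 had day means of 0.78, -1.12 and -0.47. Of 7 fibroblast markers 2 were measured, FN1 at -0.44 and POSTN at 0.27, and of 6 adipocyte markers 2, FABP4 at -0.04 and SCD at 0.04. No marker passed over the days or on day 6, and the part of the markers in the TMSB10 result was not tested. MYOD1 stood at 0.15 ± 0.20 (SD, n = 3 days), and since the antisense construct carries MyoD sequence this score does not check the silencing.

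Across the array, scores of duplicate spots correlated at 0.25 to 0.60. Between arrays the correlation over features was 0.16 to 0.21 within a day and -0.08 to 0.12 across days. The number of arrays limits the precision of every value above.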

How the data were processed

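RNA of clone and control was hybridised to 6 two-colour arrays. The authors deposited 1 score per spot; its filtering, normalization and scale are not given in the sources used here. Of the values, 2 lay beyond 16, up to 21.6, beyond the reach of log2 ratios from a scanner, so scores are not treated as log2 values. Odd and following even spots held 1 gene symbol in 1743 of 1743 named pairs and were averaged, as were probes of a gene. Features were centred on each array's median.

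The mean over the days was set against 0 in limma 3.58.1 (R 4.3.3), using 1 mean per day (two-sided, Benjamini-Hochberg over 2466 features, threshold 0.05). Days, and differences between them, came from a limma fit of the 6 arrays. Intervals are limma's, unadjusted. Tested on simulated data with 2466 features, the fit over the days recovered 97.8% of changes of 2 units, the day 1 fit 44.8%, and the contrast of days 1 and 6 17.0%; for 4 units these were 100%, 99.8% and 85.0%. False calls made up 5.60%, 5.96% and 6.66% of calls. These shares hold only for the spread that was simulated. They do not show that every change of 2 units in these data would be called.

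Every measured gene of the rule is named; of the wider list, genes past a test, the 3 highest and the 3 lowest; and by likeness 5 genes for TMSB10 and 3 each for TAGLN and CNN1. Genes, lists and thresholds were chosen with earlier results of these data known. Alternatives were separate arrays, a dye term, no centring, scale normalization, separate probes, single spots, a robust prior (statmod 1.5.0), subtraction of the median of 10 neighbouring probes, genes only, leaving out the first 40 spots, each array and each day, and other unit thresholds. Letters A and B mark dye orientation; differences between them correlated across features at -0.04 to 0.00 between days, so the letters did not pair arrays. Figures used Python 3.11.15 and matplotlib 3.10.9.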

Additional observations from a re-analysis of the deposited data

Results flagged for a closer look

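For 3 of the 5 genes, both arrays of a day lay on the opposite side of 0 from both arrays of another day, but the difference did not pass in limma. CNN1 stood 2.09 higher on day 6 than on day 1 (adjusted p = 0.569). CFL2 stood 1.71 higher on day 3 than on day 1 (adjusted p = 0.702) and 1.69 higher on day 6 than on day 1 (0.685). PFN1 changed by -1.71 from day 3 to day 6 (adjusted p = 0.621). Such opposite signs were common on this array: 14.2% of features had them between days 1 and 3, 15.6% between days 1 and 6 and 13.5% between days 3 and 6.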

How the results depend on the processing

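The mean of TMSB10 over the days missed the threshold with 6 separate arrays and the replicate block, that is, the dye term (-2.52, limma's adjusted p = 0.0712), a robust prior (-2.52, 0.0616), scale normalization (-2.57, 0.0654), separate probes (-2.53, 0.0584), the second spot alone (-1.98, 0.555), neighbouring probes subtracted (-2.29, 0.0589), genes only (-2.54, 0.0600), the first 40 spots left out (-2.52, 0.0542), without day 1 (-1.68, 0.187), without day 3 (-3.25, 0.230), without day 6 (-2.64, 0.776), and without any single array (-2.69 to -2.35, 0.103 to 0.526). The replicate block also ended its day 1 call (-4.21, 0.0527) and no other call of the 5 genes. On day 1 TMSB10 stood at -3.60 with the second spot alone and at -4.53 and -3.90 with 1 array left. The number of features called over the days was 9 as reported, 10 with 6 separate arrays, 5 with 6 separate arrays and the replicate block, 16 and 4 with the first and second spot alone, 4 with neighbouring probes subtracted, 2 with genes only, 29 without day 1, 0 without day 3 or day 6 and 0 to 8 without single arrays.

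Sign changes were limited to values that did not pass. CNN1 turned to -0.31 over the days with the second spot alone and -0.30 without day 6, and on day 3 to -0.66 with the second spot alone and to between -0.33 and 0.56 with 1 of its arrays left out. PFN1 turned to -0.22 over the days with the first spot alone, to -0.43 without day 3 and ranged from -0.053 to 0.16 without single arrays. On day 1 it turned to 0.17 with the first spot alone, 0.47 with neighbours subtracted and -0.35 to 0.0009 with 1 of its arrays left out, and from day 1 to day 6 to 0.44 with the second spot alone. CFL2 turned to 0.095 on day 1 with neighbours subtracted, and from day 3 to day 6 to 0.53 with the second spot alone, 0.11 with neighbours subtracted, 0.021 with genes only, and between -0.87 and 0.84 without single arrays. TAGLN turned to 0.036 on day 6 with the first spot alone and lay between -1.08 and 0.013 with 1 of its arrays left out, and from day 3 to day 6 to -0.67 with the second spot alone and between -0.35 and 0.74 without single arrays. Of the 35 values of the 5 genes, 26 kept their sign under all their alternatives. Features at least 2 units lower on both arrays numbered 7, 20 and 28 on days 1, 3 and 6, and 96, 104 and 136 at 1 unit. With 1 array of a day left, that array was assumed to vary like those of the other days. Where calls were lost the cause was not tested. A single probe per gene, the gap between its spots and 6 arrays limit these values.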
